A study of Mus musculus with 15 samples.

Results

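A set of 10 genes of the Bcl-2 family, which decide whether a cell commits to mitochondrial apoptosis, were followed across blood monocytes and 3 macrophage subsets of the mouse small intestine. They were named by symbol and matched to the Ensembl identifiers of a count table of 19456 genes. All 10 were found, and all 10 passed the filter on low counts that left 15802 genes for testing. They comprise 5 pro-survival genes (*Bcl2*, *Bcl2l1*, *Mcl1*, *Bcl2a1b* and *Bcl2a1d*), 2 effectors (*Bax* and *Bak1*) and 3 BH3-only genes (*Bcl2l11*, *Bbc3* and *Pmaip1*).

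The data were bulk RNA sequencing of 15 libraries from wild-type male adult C57BL/6 mice. There were 3 libraries of Ly6Chi monocytes from peripheral blood, each from 3 to 4 pooled mice, and 4 libraries for each of 3 macrophage subsets of the small intestine, each from 3 pooled mice. The subsets are given below in a fixed order, with Tim-4-CD4- first, Tim-4-CD4+ second and Tim-4+CD4+ last. The labels name no treatment and no transgene. Tim-4 is a phosphatidylserine receptor, and the study uses its surface staining with CD4 to divide gut macrophages that differ in how often monocytes replace them, so the comparison of Tim-4+CD4+ with Tim-4-CD4- cells asks whether the subset described as locally maintained carries other levels of survival and death genes. A library is a pool, so the spread and the p-values below describe pooled sorts and not single mice.

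Apoptosis through the mitochondrion is set by binding between Bcl-2 family proteins. Pro-survival proteins hold the effectors Bax and Bak in check, BH3-only proteins occupy the pro-survival proteins or engage the effectors, and freed effectors permeabilise the outer membrane and release cytochrome c. In myeloid cells Mcl-1 is a short-lived protein whose supply depends on continued synthesis, and A1, encoded by the *Bcl2a1* genes, is an NF-kB target. Transcript levels say nothing of this binding or of protein stability, so the values below are supply of mRNA only.

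The libraries held 39388763 to 151510641 counts, with a median of 63249039, and the lowest count of any of the 10 genes in any library was 121. Levels are CPM after TMM normalisation, that is counts scaled to a common library total, with each total adjusted by the trimmed mean of the library's log ratios to a reference library. The sort was visible in the counts: *Timd4* averaged 355 CPM in Tim-4+CD4+ and 1.70 CPM or less elsewhere, and *Cd4* averaged 22.9, 531 and 816 CPM in the 3 subsets in order. The summed level of 9 macrophage markers was 23769 to 30293 CPM in the macrophage libraries and 4229 to 4743 CPM in monocytes, where *C1qa*, a complement gene of macrophages, averaged 2.31 CPM. *H2-Ab1*, at 10521 to 15533 CPM in macrophages, was the largest part of that sum. Of the 9, 6 were called higher than in monocytes in each subset, and 0, 1 and 1 lower in the subsets in order. *Cd68* overlapped, at 502 to 667 CPM in monocytes and 468 to 593 CPM in macrophages. *Itgam* was 328 to 378 CPM in monocytes and 185 to 233 CPM in Tim-4+CD4+. The defining monocyte gene *Ly6c2* averaged 1092 CPM in monocytes and 1.72 CPM or less in each macrophage subset. Replicate 1 of Tim-4+CD4+ stood apart from its group, with a chi-square per gene of 236 to 303 against the other libraries, which differed from each other by 42.9 to 83.2. In the other groups Tim-4-CD4+ replicate 3 was at 72.3 to 143, where the rest differed by 25.1 to 47.35. Tim-4-CD4- replicate 2 was at 47.5 to 60.9 beside 24.1 to 30.6, and monocyte replicate 1 at 72.2 and 181 beside 46.0. The measure is not scaled for library depth. Without Tim-4+CD4+ replicate 1 *Bbc3* in Tim-4+CD4+ against Tim-4-CD4- stayed called in edgeR (log2 fold change -0.70) and *Bcl2l11* did not (-0.29, adjusted p = 0.0662 in edgeR).

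Few of the 10 genes were called between macrophage subsets, and those called were lower in the CD4+ subsets. *Bbc3* and *Bcl2l11*, which encode the BH3-only killers Puma and Bim, were lower in Tim-4+CD4+ than in Tim-4-CD4- macrophages, by 1.71-fold and 1.24-fold. None of the 5 pro-survival genes was called higher. Thus 2 of the 10 genes passed an adjusted p of 0.05 (edgeR quasi-likelihood test, Benjamini-Hochberg over 15802 genes), both lower, against 23.1% of all genes called in this comparison and 11.9% called lower. The share of members is therefore near the background. The median log2 fold change of the 10 genes was -0.17, with a median of all genes of -0.00, and the libraries of the 2 populations did not overlap for 3 of 10 genes, against 26.4% of all genes.

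In Tim-4-CD4+ against Tim-4-CD4- macrophages 1 of 10 genes was called, *Bbc3*, again lower in the CD4+ cells, with a background of 10.1% called and 5.53% called lower. In Tim-4+CD4+ against Tim-4-CD4+ macrophages 0 of 10 genes were called by edgeR and 0 by DESeq2, beside 3.41% of all genes by edgeR. At an unadjusted p under 0.05 edgeR counted 1 gene there, *Bcl2l11*, with a background of 14.5% on the same criterion. The first pair of comparisons shares the Tim-4-CD4- libraries, so their results are not independent. The forest plot of subset differences gives each gene's change with its interval.

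**Figure D1:**
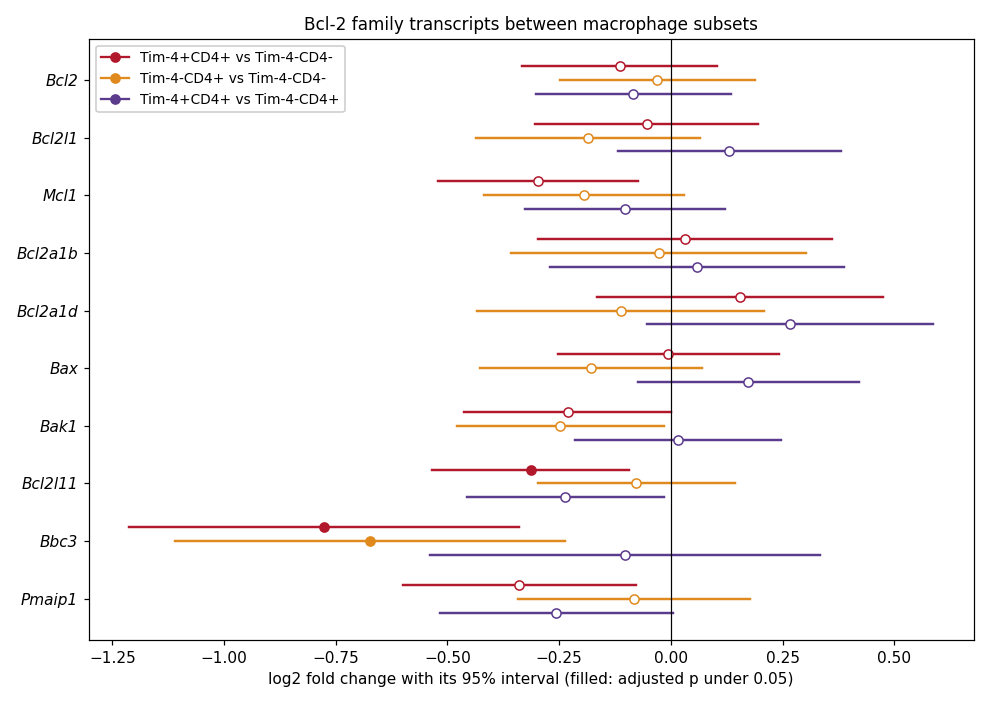
Log2 fold change of the 10 genes (x axis) in the 3 comparisons of macrophage subsets, with bars for the 95% interval from the edgeR fit over 15 libraries and filled symbols where the adjusted p was under 0.05. *Bbc3* and *Bcl2l11* are filled for Tim-4+CD4+ against Tim-4-CD4-, *Bbc3* alone for Tim-4-CD4+ against Tim-4-CD4-, and no gene for Tim-4+CD4+ against Tim-4-CD4+.

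Against blood monocytes most of the 10 genes were called, as were most of all genes tested. *Bcl2a1b* and *Bcl2a1d* were more than 10-fold higher in every macrophage subset, *Pmaip1*, which encodes Noxa, was 5.67-fold to 7.18-fold higher, and *Bbc3* and *Bak1* were lower. In Tim-4-CD4- macrophages 8 of 10 genes were called, 6 higher and 2 lower, beside 65.4% of all genes, 37.3% higher and 28.1% lower. In Tim-4-CD4+ macrophages 9 of 10 were called, 6 higher and 3 lower, beside 69.8% of all genes, 39.1% higher and 30.7% lower. In Tim-4+CD4+ macrophages 8 of 10 were called, 5 higher and 3 lower, beside 70.9% of all genes, 39.5% higher and 31.3% lower. If calls under 2-fold are set aside, 5 of 10 genes remained in each subset, near the background of 38.2%, 42.3% and 43.3%. Median log2 fold changes of the 10 genes were 0.49, 0.38 and 0.28, and those of all genes 0.08, 0.11 and 0.10. The 3 comparisons share the monocyte libraries.

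Gut cells were released by digestion at body temperature while blood was only lysed, so tissue digestion and cell population cannot be told apart. The 14 early-response genes listed for that step were higher in 14 of 14 cases in each subset, with a summed level of 1681 to 1846 CPM in monocytes and of 31630 to 46124 CPM in macrophages. Also higher in each subset were 7 of 7 B and plasma cell and 8 of 8 mesenchymal and endothelial markers. So were 6 of 7 dendritic cell markers, with 1 lower. Epithelial markers were higher in 8, 7 and 7 of 8 and T cell markers in 7, 8 and 8 of 9. In Tim-4+CD4+ 1 T cell marker was lower. Of 5 granulocyte and mast cell markers 2 were higher in each and 2, 3 and 3 lower. Of all genes 37.3%, 39.1% and 39.5% were called higher. The part of these markers against monocytes was not tested. In bulk RNA, fewer cells of a type and less RNA of a gene in each cell cannot be told apart.

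**Figure D2:**
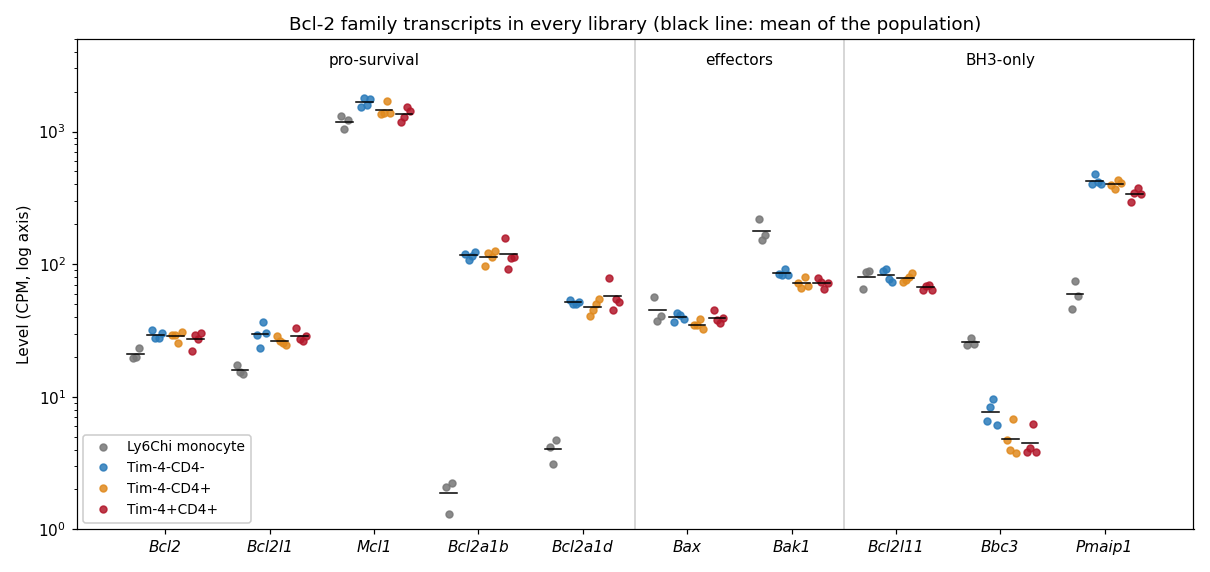
Level of each of the 10 genes in each library (y axis, TMM-normalised CPM, log scale), with points for libraries, colours for the 4 populations and a black line for the group mean. *Mcl1* lies above 1000 CPM in all 15 libraries, and *Bcl2a1b* and *Bcl2a1d* separate monocytes, at under 5 CPM, from macrophages, at over 40 CPM.

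Among the pro-survival genes *Mcl1* was the most abundant in every library. It (ENSMUSG00000038612) lies at chr3:95658788-95663176 on the plus strand (GRCm38). Its level was 1306, 1050.3 and 1215 CPM in the monocyte libraries and 1534, 1783, 1585 and 1760.5 CPM in Tim-4-CD4- macrophages. It was 1368, 1379, 1703 and 1369 CPM in Tim-4-CD4+ and 1171, 1288, 1538 and 1426 CPM in Tim-4+CD4+ macrophages. The Tim-4-CD4- libraries were the highest group and all lay above the monocyte libraries, while the Tim-4+CD4+ libraries overlapped both. *Mcl1* in Tim-4+CD4+ was -0.30 ± 0.11 (log2 fold change ± SE, n = 4 against 4; 95% interval -0.52 to -0.07) relative to Tim-4-CD4-, with an adjusted p of 0.0532 in edgeR, just outside the threshold. Relative to monocytes it was higher in Tim-4-CD4- (log2 fold change 0.48) and in Tim-4-CD4+ macrophages (0.29, adjusted p = 0.0338 in edgeR), and 0.19 with an adjusted p of 0.154 in Tim-4+CD4+ macrophages.

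*Bcl2a1b* and *Bcl2a1d*, near-identical copies of the A1 gene on chromosome 9, were the pro-survival genes that most separated macrophages from monocytes. *Bcl2a1b* was 2.10, 1.30 and 2.25 CPM in monocytes and 120.0, 108, 115 and 123 CPM in Tim-4-CD4- macrophages. It was 96.8, 122, 113 and 125 CPM in Tim-4-CD4+ and 158, 92.7, 112 and 114 CPM in Tim-4+CD4+ macrophages. No macrophage library came near the monocyte range, and the 3 macrophage groups overlapped. The log2 fold changes against monocytes were 5.96, 5.93 and 5.99 in the subsets in order, or 62.2-fold, 61.1-fold and 63.6-fold.

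*Bcl2a1d* followed the same course. It was 4.22, 3.11 and 4.76 CPM in monocytes and 54.1, 50.4, 50.2 and 51.9 CPM in Tim-4-CD4- macrophages. It was 40.4, 45.4, 50.4 and 54.8 CPM in Tim-4-CD4+ and 78.0, 45.2, 54.5 and 52.3 CPM in Tim-4+CD4+ macrophages. The rise over monocytes was 12.9-fold, 11.9-fold and 14.4-fold. Replicate 1 of Tim-4+CD4+ held the highest level of both copies, and without it *Bcl2a1b* in Tim-4+CD4+ against Tim-4-CD4- turned from a log2 fold change of 0.03 to -0.13 and *Bcl2a1d* from 0.15 to -0.03, none of them called.

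The reads of these copies cannot be assigned with confidence. The longest coding transcripts of *Bcl2a1b* and *Bcl2a1d* were identical at 99.1% of 817 aligned bases. Of their 65-base windows, the read length, 72.8% and 71.6% also occurred in another *Bcl2a1* copy or an overlapping model. A single read there matches more than 1 gene model. Windows shared only with the overlapping model were not separated from those shared with a copy. *Gm29094*, a gene model on the same strand, overlaps 49.1% of the exon bases of *Bcl2a1b*. With the 4 *Bcl2a1* copies summed as 1 feature, the log2 fold change against monocytes was 4.70, 4.62 and 4.75 in the subsets, and 0.05 for Tim-4+CD4+ against Tim-4-CD4- (adjusted p = 0.859 in edgeR).

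Because both copies rose together from a low level, their promoters are shown, 250 bases before to 50 bases after the RefSeq start (GRCm38.p6). *Bcl2a1b* (ENSMUSG00000089929) is at chr9:89199209-89207827 on the plus strand with the promoter at chr9:89199023-89199322, and *Bcl2a1d* (ENSMUSG00000099974) at chr9:88723285-88731914 on the minus strand with the promoter at chr9:88731801-88732100. Capitals mark the PU.1 box GAGGAAGT, the site of a factor that all macrophages use, searched on both strands and found in 3.2% of 32851 mouse promoters of the same length.
Bcl2a1b: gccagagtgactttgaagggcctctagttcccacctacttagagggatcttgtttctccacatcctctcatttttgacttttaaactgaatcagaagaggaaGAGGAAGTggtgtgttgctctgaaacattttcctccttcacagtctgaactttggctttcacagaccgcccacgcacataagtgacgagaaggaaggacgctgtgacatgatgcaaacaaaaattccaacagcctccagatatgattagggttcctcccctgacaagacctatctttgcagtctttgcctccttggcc
Bcl2a1d: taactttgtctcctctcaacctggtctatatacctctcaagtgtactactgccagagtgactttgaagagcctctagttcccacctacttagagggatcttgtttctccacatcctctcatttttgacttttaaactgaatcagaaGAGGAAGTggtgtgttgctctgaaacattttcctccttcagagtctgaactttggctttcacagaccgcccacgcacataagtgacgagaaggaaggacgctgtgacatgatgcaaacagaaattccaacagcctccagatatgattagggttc
The windows aligned over 250 bases with 98.8% identity, and the box starts at -148 and -104 from the listed starts. Among the other members searched, which leaves out *Pmaip1*, only *Bak1* held this box. The motif was chosen after these sequences were read, and a match is a description and no evidence of binding.

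*Bcl2* and *Bcl2l1*, which encode Bcl-2 and Bcl-xL, were low and were not called between macrophage subsets. *Bcl2* (ENSMUSG00000057329, chr1:106538178-106714274, minus strand) ranged from 19.7 to 23.1 CPM in monocytes and from 22.0 to 32.0 CPM over the 12 macrophage libraries. *Bcl2l1* (ENSMUSG00000007659, chr2:152780668-152831728, minus strand) averaged 15.9 CPM in monocytes, with a maximum of 17.4 CPM, and ranged from 23.5 to 36.7 CPM in macrophages. Both were called higher than in monocytes in every subset, *Bcl2* by log2 0.49, 0.46 and 0.38 and *Bcl2l1* by 0.91, 0.72 and 0.85 in the subsets in order. In Tim-4+CD4+ against Tim-4-CD4- cells, *Bcl2* was at a log2 fold change of -0.11 (95% interval -0.33 to 0.10) and *Bcl2l1* at -0.05 (-0.30 to 0.19). Both intervals include no change.

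Of the effectors, *Bak1* was lower in macrophages than in monocytes. *Bak1* (ENSMUSG00000057789, chr17:27019810-27029009, minus strand) was 220.1, 151 and 166 CPM in monocytes and 84.0, 82.7, 91.5 and 82.2 CPM in Tim-4-CD4- macrophages. It was 71.9, 66.2, 80.6 and 68.1 CPM in Tim-4-CD4+ and 79.3, 73.9, 64.7 and 72.1 CPM in Tim-4+CD4+ macrophages. Each monocyte library was above each macrophage library, and each Tim-4-CD4- library was above every library of the CD4+ subsets. *Bak1* was 2.10-fold, 2.50-fold and 2.47-fold lower than in monocytes in the subsets, all called, while its log2 fold changes relative to Tim-4-CD4- were -0.23 in Tim-4+CD4+ (adjusted p = 0.145 in edgeR) and -0.25 in Tim-4-CD4+ (adjusted p = 0.185). *Ggnbp1* overlaps 25.5% of *Bak1* exon bases on the opposite strand, and the sources do not say whether counting used strand.

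*Bax* (ENSMUSG00000003873, chr7:45461697-45466898, minus strand) ranged from 37.5 to 56.4 CPM in monocytes and from 32.3 to 45.1 CPM in macrophages. The highest value belonged to monocyte replicate 1, and the groups overlapped. It was called only in Tim-4-CD4+ against monocytes (log2 fold change -0.35, adjusted p = 0.0188 in edgeR), and without monocyte replicate 1 that value was -0.12 (adjusted p = 0.352). Its log2 fold change in Tim-4+CD4+ against Tim-4-CD4- was -0.01, with a 95% interval from -0.25 to 0.24, and its sign changed under other scalings.

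Among the 10 genes only BH3-only members were called between macrophage subsets. *Bbc3* (ENSMUSG00000002083, chr7:16308393-16318205, plus strand), which encodes Puma, a target of p53 that binds all pro-survival proteins, was 24.7, 27.7 and 25.2 CPM in monocytes. In Tim-4-CD4- macrophages it was 6.61, 8.44, 9.57 and 6.13 CPM. In Tim-4-CD4+ it was 4.71, 3.97, 6.84 and 3.75 CPM, and in Tim-4+CD4+ 3.81, 4.11, 6.29 and 3.81 CPM. Monocytes stood far above all macrophages, and among the macrophages replicate 3 of both CD4+ subsets lay inside the Tim-4-CD4- range while the other 6 CD4+ libraries lay below it.

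*Bbc3* was lower in Tim-4+CD4+ than in Tim-4-CD4- by a log2 fold change of -0.78 ± 0.21 (SE, n = 4 against 4; 95% interval -1.21 to -0.34; adjusted p = 0.0115 in edgeR), and lower in Tim-4-CD4+ by -0.67 ± 0.21 (adjusted p = 0.0488). Against monocytes it was 3.36-fold, 5.36-fold and 5.75-fold lower in the subsets in order. The first call was kept in all 23 alternative fits of it at the adjusted p alone, though not with a 2-fold minimum, with adjusted p between 0.00246 and 0.0478 in edgeR or DESeq2. The call in Tim-4-CD4+ was lost in 15 of 23, with adjusted p up to 0.163.

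*Bcl2l11* (ENSMUSG00000027381, chr2:128126038-128162547, plus strand), which encodes Bim, was 65.5, 86.9 and 88.5 CPM in monocytes and 89.5, 92.6, 76.8 and 72.8 CPM in Tim-4-CD4- macrophages. It was 72.8, 76.2, 79.6 and 85.6 CPM in Tim-4-CD4+ and 63.8, 68.9, 70.0 and 64.3 CPM in Tim-4+CD4+ macrophages. All 4 Tim-4+CD4+ libraries lay below all 8 libraries of the other macrophage subsets, and within or below the monocyte range. The log2 fold change in Tim-4+CD4+ against Tim-4-CD4- was -0.31 ± 0.10 (SE, n = 4 against 4; 95% interval -0.54 to -0.09; adjusted p = 0.0387 in edgeR), and against Tim-4-CD4+ it was -0.24 ± 0.10 (adjusted p = 0.298). The first call was lost in 13 of 23 alternative fits, DESeq2 among them (adjusted p = 0.0519), and the adjusted p ranged from 0.0184 to 0.129 over them. Against monocytes *Bcl2l11* was not called in the Tim-4- subsets (log2 0.05 and -0.03, the second of which changed sign under other scalings) and called lower in Tim-4+CD4+ (-0.27, adjusted p = 0.0425 in edgeR), a call lost in 22 of 23 alternatives.

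*Pmaip1* (ENSMUSG00000024521), on chromosome 18, encodes Noxa, which binds Mcl-1 and A1. It was 45.9, 74.5 and 57.2 CPM in monocytes and 404, 475, 419 and 401 CPM in Tim-4-CD4- macrophages. It was 397, 368, 429 and 411 CPM in Tim-4-CD4+ and 292, 341, 373 and 337 CPM in Tim-4+CD4+ macrophages. Every macrophage library was several-fold above every monocyte library, and the Tim-4+CD4+ libraries lay below all 4 Tim-4-CD4- libraries. The rise over monocytes was 7.18-fold, 6.78-fold and 5.67-fold in the subsets in order. In Tim-4+CD4+ against Tim-4-CD4- the log2 fold change was -0.34 ± 0.12 (SE, n = 4 against 4; 95% interval -0.60 to -0.08), with an adjusted p of 0.0571 in edgeR that does not pass the threshold, and 5 of 23 alternatives did call it.

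**Figure D3:**
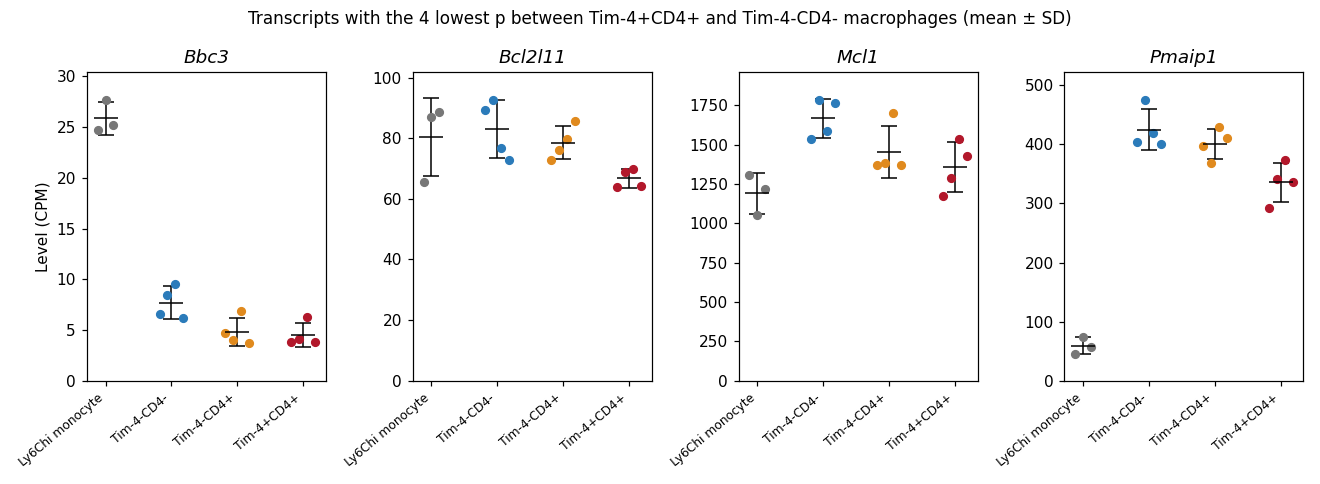
Levels of *Bbc3*, *Bcl2l11*, *Mcl1* and *Pmaip1* by library (y axis, CPM, linear from 0) in the 4 populations, with points for libraries and bars for the mean ± SD. Among the macrophage subsets Tim-4+CD4+ is the lowest on average for all 4 genes, *Bcl2l11* and *Pmaip1* without overlap with Tim-4-CD4-. Monocytes are lower still on average for *Mcl1* and *Pmaip1*. Only *Bbc3* and *Bcl2l11* passed an adjusted p of 0.05 in Tim-4+CD4+ against Tim-4-CD4-.

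The promoters of the 2 called genes are shown because both genes are known targets of FoxO factors. The first of 2 listed starts of *Bcl2l11* is given at chr2:128125788-128126087 and the second of 3 of *Bbc3* at chr7:16310011-16310310, both on the plus strand (RefSeq, GRCm38.p6), because these windows hold the motif and the other listed starts of both genes do not. Capitals mark the FoxO core GTAAACA, or TGTTTAC where it lies on the minus strand. It was searched on both strands after the sequences had been read and occurs in 3.65% of 32851 promoters of this length.
Bcl2l11: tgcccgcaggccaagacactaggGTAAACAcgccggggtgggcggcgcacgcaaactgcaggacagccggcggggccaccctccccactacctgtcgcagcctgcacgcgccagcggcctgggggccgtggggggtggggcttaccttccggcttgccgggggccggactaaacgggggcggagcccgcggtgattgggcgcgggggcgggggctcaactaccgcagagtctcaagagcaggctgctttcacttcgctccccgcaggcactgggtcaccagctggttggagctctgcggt
Bbc3: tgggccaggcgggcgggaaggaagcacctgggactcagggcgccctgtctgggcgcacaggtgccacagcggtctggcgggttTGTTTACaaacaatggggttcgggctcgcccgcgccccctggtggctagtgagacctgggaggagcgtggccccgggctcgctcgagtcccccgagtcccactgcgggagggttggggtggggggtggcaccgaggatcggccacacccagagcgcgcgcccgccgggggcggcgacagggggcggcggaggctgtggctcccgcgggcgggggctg
The core starts at -227 and -167 from the starts shown. It was not found at the listed starts of the other members searched, which leaves out *Pmaip1*. The match draws nothing about which factor acts on these genes.

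Markers of other cells moved with the comparison of Tim-4+CD4+ with Tim-4-CD4- macrophages, and their part in its results was not tested. Of 5 Ly6Chi monocyte markers, 2 were lower, *Ccr2* and *Plac8*, and the summed level was 554.7 to 830.3 CPM in Tim-4-CD4- and 14.5 to 25.6 CPM in Tim-4+CD4+, with *Ly6c2* near 0 in both. Of 7 dendritic cell markers 3 were lower, *Flt3*, *Ccr7* and *Itgae*, with summed levels of 122 to 203 and 106 to 140.3 CPM. Of 8 mesenchymal and endothelial markers 4 were higher, *Col1a1*, *Col1a2*, *Col3a1* and *Dcn*, at 82.1 to 105 and 129 to 173 CPM, and of 14 early-response genes 4 were lower, *Nr4a1*, *Egr1*, *Ier2* and *Atf3*, at 37672 to 45216 and 31630 to 37486 CPM. Markers of T cells (*Trac*, 1 of 9, higher, 4.61 to 9.05 against 8.57 to 11.4 CPM), granulocytes and mast cells (*Siglecf*, 1 of 5 tested, higher, 5.61 to 10.3 against 11.4 to 16.8 CPM), epithelium (*Krt20*, *Vil1* and *Fabp2*, 3 of 8, higher and *Cdh1* lower, 13.1 to 30.5 against 19.5 to 29.8 CPM) and B and plasma cells (0 of 7 called, 283 to 423 against 241 to 429.5 CPM) were low beside the summed macrophage markers. *Jchain* alone was 189 to 369 CPM over the macrophage libraries, where *Itgam* was 185 to 364 CPM and *Adgre1* 873 to 1235 CPM.

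The same lists moved in Tim-4-CD4+ against Tim-4-CD4-, where *Bbc3*, *Bid*, *Fas* and *Bcl2l15* were called, and their part was not tested there either. *Ccr2* and *Plac8* were again lower among the 5 monocyte markers, whose sum was 75.5 to 132 CPM in Tim-4-CD4+. Of the 7 dendritic cell markers *Flt3* and *Itgae* were lower (sum 109.7 to 159 CPM), and of the 9 T cell markers *Cd3e*, *Trac* and *Trbc2* were higher (10.8 to 16.8 CPM). Of the 8 epithelial markers *Krt20*, *Vil1* and *Fabp2* were higher and *Cdh1* lower (18.3 to 24.3 CPM), and of the 14 early-response genes *Ier2* and *Nr4a1* were lower (32097 to 46124 CPM). Among 7 B and plasma cell, 5 granulocyte and mast cell and 8 mesenchymal and endothelial markers edgeR made 0 calls, with 0, 2 and 1 at an unadjusted p under 0.05.

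*Hspa1a* and *Hspa1b*, heat-shock genes that are near-identical copies of each other, varied among libraries of the same subset. *Hspa1a* was 534 CPM in Tim-4-CD4- replicate 2, 542 CPM in Tim-4-CD4+ replicate 3 and 616 CPM in Tim-4+CD4+ replicate 3, and at most 279.8, 338 and 315 CPM in the other libraries of those subsets. *Hspa1b* was 712, 708 and 816 CPM in the same 3 libraries and at most 225, 284 and 310.2 CPM in the others. These libraries also held the highest *Mcl1* and *Pmaip1* of their subset, and the last 2 the highest *Bbc3*, and the part of the stress genes in those levels was not tested.

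The make-up of each class shows how the supply of mRNA was divided, on a scale of CPM per kilobase of exon. For *Bcl2a1b* and *Bcl2a1d*, whose windows are largely shared, only uniquely mapped reads were counted against the full exon length, so their levels and shares are not on the same footing as those of *Mcl1*, *Bcl2* and *Bcl2l1*, which share 0% of windows. *Mcl1* averaged 348, 487, 426 and 397 CPM per kb in monocytes and the 3 subsets in order. *Bcl2a1b* averaged 2.31, 142, 140.0 and 146 CPM per kb and *Bcl2l1* 3.48, 6.52, 5.73 and 6.27 CPM per kb. *Bcl2*, the founding member of the family, averaged 2.28 to 3.21 CPM per kb and contributed 0.637% of the pro-survival sum in monocytes and 0.460%, 0.504% and 0.484% in the subsets.

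The pro-survival sum of the 5 genes was 361 ± 39.5 CPM per kb in monocytes (SD, n = 3) and 699 ± 33.8, 630 ± 54.0 and 618 ± 46.3 in the subsets in order (SD, n = 4 each). *Mcl1* made up 96.5% of that sum in monocytes and 69.6%, 67.5% and 64.3% in the macrophages. The *Bcl2a1b* and *Bcl2a1d* share was 1.92% in monocytes and 29.0%, 31.0% and 34.2% in the macrophages, the last with 44.6% in replicate 1 and at most 31.9% in the others. Without division by length the *Mcl1* shares were 96.5%, 87.9%, 86.9% and 85.2%, those of the A1 pair 0.476%, 8.91%, 9.73% and 11.2%, and those of *Bcl2* 1.71%, 1.56%, 1.74% and 1.71%.

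**Figure D4:**
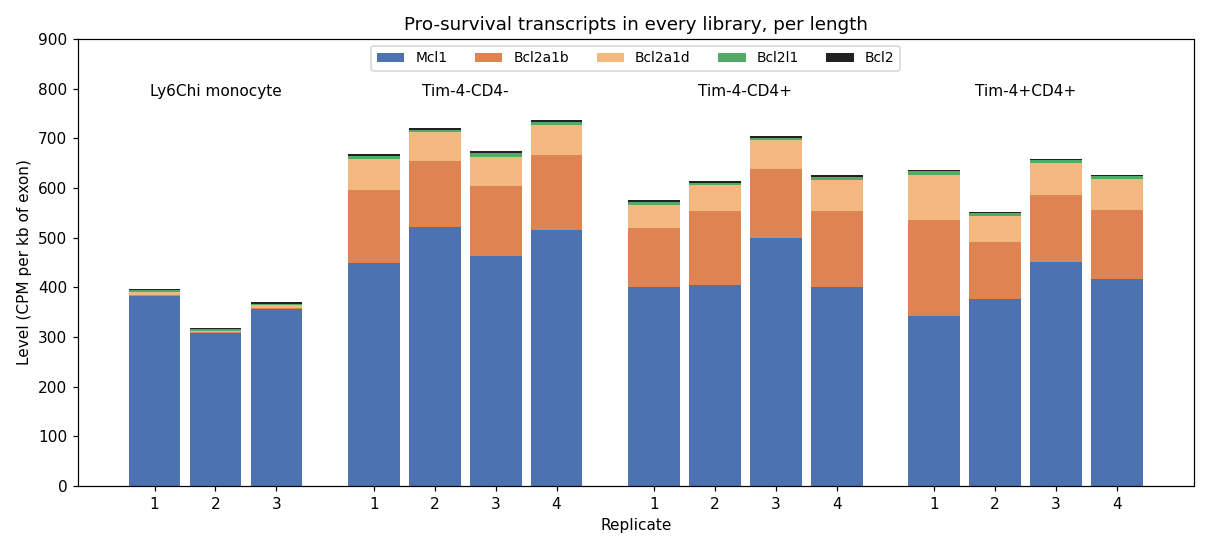
Stacked level of the 5 pro-survival genes in each of the 15 libraries (y axis, CPM per kb of exon, from 0). Monocyte bars are nearly all *Mcl1*, and macrophage bars are taller and hold a band of *Bcl2a1b* and *Bcl2a1d* that is widest in replicate 1 of Tim-4+CD4+.

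For the 3 BH3-only members alone the sum was 43.8 CPM per kb in monocytes and 169, 159 and 133 CPM per kb in the macrophages. *Pmaip1* made up 49.0% of this sum in monocytes and 91.8%, 92.4% and 92.2% in macrophages. *Bbc3* and *Bcl2l11* together made up the rest of the same sum. The ratio of the pro-survival to the BH3-only sum was 8.49 ± 2.30 in monocytes (SD, n = 3) and 4.14 ± 0.354, 3.96 ± 0.249 and 4.67 ± 0.579 in the macrophages (SD, n = 4 each). This ratio leaves out the BH3-only genes *Bid*, *Bmf* and *Bad*, at 24.3, 21.2 and 9.31 CPM per kb in monocytes. In Tim-4-CD4- macrophages they averaged 4.83, 5.99 and 6.83 CPM per kb. Also left out are the rare *Bik* and the pro-survival *Bcl2a1a* and *Bcl2l2*, which were higher in macrophages. The lower ratio in macrophages thus holds only for the genes summed, and a ratio over the wider family was not computed. The ratio of *Bak1* to *Bax* per kb was 2.63 ± 0.0718 in monocytes and 1.41 ± 0.105, 1.34 ± 0.0647 and 1.20 ± 0.0554 in the subsets (SD). All monocyte libraries exceeded all macrophage libraries in the *Bak1* to *Bax* ratio, at 2.55 to 2.70 against 1.15 to 1.51. Without division by length this ratio averaged 4.01 in monocytes and 2.15, 2.05 and 1.84 in the subsets. The *Pmaip1* share was then 35.5%, 82.4%, 82.8% and 82.5%. The ratio of the pro-survival to the BH3-only sum was then 7.68, 3.69, 3.45 and 3.91.

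Of a list of 16 other family genes 14 were in the table, and *Bcl2l10* and *Hrk* were not analysed here. In Tim-4+CD4+ against Tim-4-CD4- macrophages 3 of 14 were called beside 23.1% of all genes, *Bid* and *Bcl2l13* lower and *Bcl2l15* higher. Against monocytes 13 of 14 were called in each subset, 7 higher and 6 lower, and only *Bcl2l12* was not, where 65.4%, 69.8% and 70.9% of all genes were called. In Tim-4-CD4+ against Tim-4-CD4- there were 2 calls of 14 beside 10.1% of all genes, *Bid* lower and *Bcl2l15* higher, and in Tim-4+CD4+ against Tim-4-CD4+ edgeR made 0 calls, with 2 genes at an unadjusted p under 0.05. The list medians in the subset comparisons were -0.11, -0.13 and 0.03 in the order used above, and none is given against monocytes, where 4 of the genes had at most 1 count in a library.

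*Bid*, the BH3-only protein cleaved by caspase-8 that links death receptors to mitochondria, was lower in both CD4+ subsets. It was 93.6, 82.6 and 82.6 CPM in monocytes and 16.1, 17.5, 18.1 and 17.0 CPM in Tim-4-CD4- macrophages. It was 13.1, 10.6, 13.1 and 12.9 CPM in Tim-4-CD4+ and 13.3, 12.4, 10.9 and 9.72 CPM in Tim-4+CD4+ macrophages. All libraries of the CD4+ subsets lay below all 4 Tim-4-CD4- libraries. *Bid* was lower by a log2 fold change of -0.57 ± 0.10 in Tim-4+CD4+ (SE, n = 4 against 4; adjusted p = 0.000677 in edgeR) and by -0.46 ± 0.10 in Tim-4-CD4+ (adjusted p = 0.00761), and was 5.03-fold, 6.93-fold and 7.45-fold lower than in monocytes. The Tim-4+CD4+ call held in 23 of 23 alternative fits, none of which reached 2-fold. *Bid* and *Bcl2l13* overlap on opposite strands, and *Bcl2l13* was 32.6 to 37.4 CPM in Tim-4-CD4- and 20.6 to 30.1 CPM in Tim-4+CD4+ (log2 fold change -0.39, adjusted p = 0.0137 in edgeR).

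*Bcl2l15*, a little-studied family member, was rare, at 0.184 to 0.367 CPM in Tim-4-CD4-, 0.531 to 0.946 in Tim-4-CD4+ and 1.03 to 1.57 in Tim-4+CD4+ macrophages. The 3 ranges do not overlap, and both CD4+ subsets were called higher than Tim-4-CD4-. Its log2 fold change in Tim-4+CD4+ against Tim-4-CD4- was 2.18 ± 0.35 (SE, n = 4 against 4; adjusted p = 0.000245 in edgeR), and 21.3% of its 65-base windows are shared with the model *Gm43064*. Monocytes held 1, 0 and 0 counts of it. *Bcl2a1c* likewise had 1, 0 and 0 counts in monocytes and 0.0344 to 0.336 CPM in macrophages, and *Bok*, a Bax-like effector, and *Bik*, a BH3-only gene, had 0 counts in all 3 monocyte libraries, where 3 counts would be 0.0213 to 0.0557 CPM. *Bok* reached at most 0.321 CPM and *Bik* at most 0.569 CPM in macrophages, so both remained rare.

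Of the rest, *Bmf*, a BH3-only gene tied to the cytoskeleton, was 88.2 to 133 CPM in monocytes and 20.8 to 39.4 CPM in macrophages. *Bnip3l*, a mitophagy receptor, was 112 to 137 and 46.6 to 57.4 CPM, and its relative *Bnip3* averaged 11.9 CPM in monocytes and 6.47 to 8.18 CPM in the subsets. *Bad*, a BH3-only gene regulated by phosphorylation, averaged 23.8 CPM in monocytes and 15.2 to 17.5 CPM in the subsets. These 4 were called lower than in monocytes in all 3 subsets. *Bcl2l2*, which encodes pro-survival Bcl-w, was higher at 20.1 to 26.2 CPM against 10.6 to 13.2 CPM, as were *Bcl2a1a*, at 21.9 to 37.2 against 1.26 to 1.98 CPM, and *Bcl2l14*, at 3.13 to 6.05 against 0.539 to 1.37 CPM. *Bcl2l12* averaged 11.1 CPM in monocytes and 9.06 to 10.5 CPM in the subsets.

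**Figure D5:**
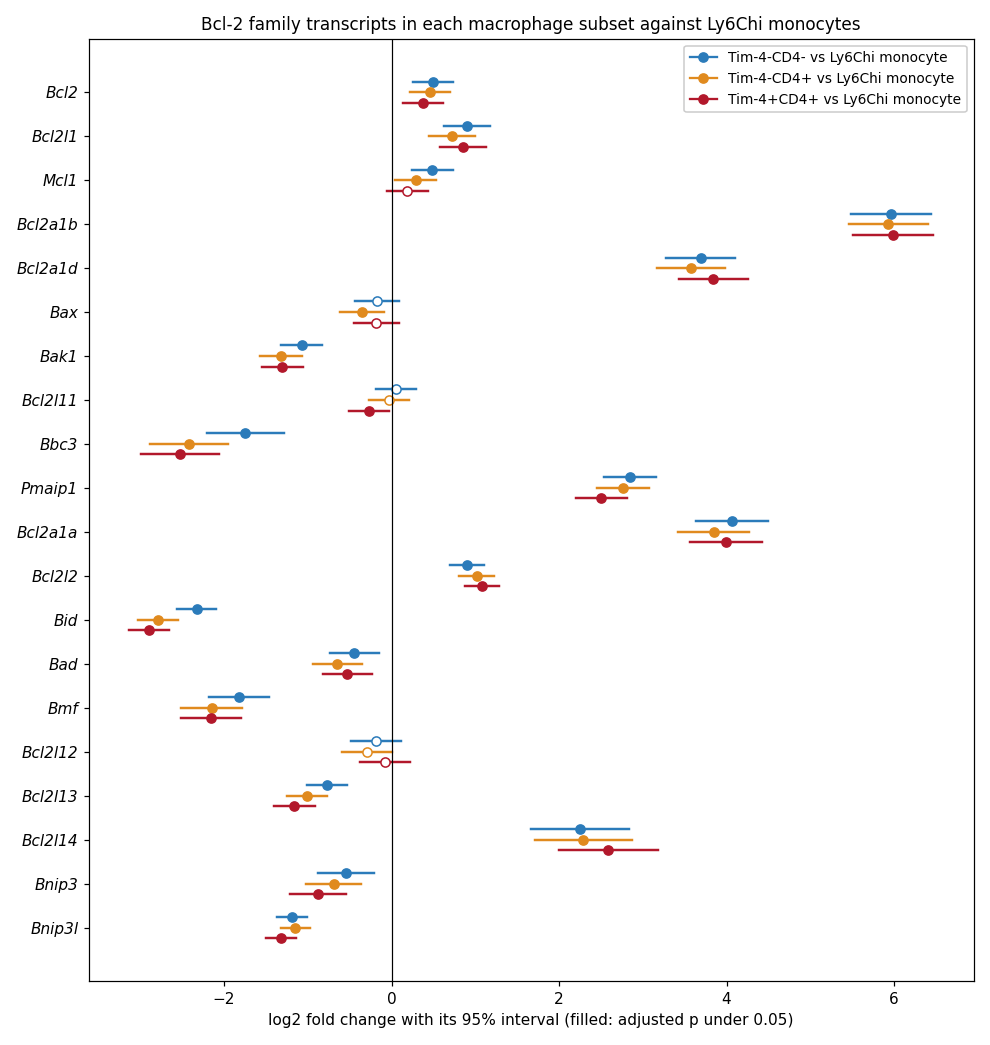
Log2 fold change against Ly6Chi monocytes (x axis) of 20 family genes in each macrophage subset, with bars for the 95% interval and filled symbols where the adjusted p was under 0.05. *Bcl2a1b* lies farthest to the right, near 6, and *Bid* farthest to the left, and 4 further genes with at most 1 count in a monocyte library are not drawn.

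Downstream of the mitochondrion, 3 of 17 apoptosome, caspase and inhibitor genes were called in Tim-4+CD4+ against Tim-4-CD4- macrophages, all lower, with a list median of -0.12 beside -0.00 for all genes. This is below the 23.1% of all genes called, and near the 11.9% called lower. *Apaf1*, the scaffold of the apoptosome, averaged 89.8 ± 3.97 CPM in Tim-4-CD4- and 60.7 ± 12.7 CPM in Tim-4+CD4+ (SD, n = 4 each; log2 fold change -0.57, adjusted p = 0.00612 in edgeR). Replicate 1 of Tim-4+CD4+, at 41.9 CPM, lay below the 64.2 to 70.1 CPM of the other libraries of that subset, and without it the value was -0.42 (adjusted p = 0.00451). *Casp2*, an initiator caspase, averaged 43.9 and 30.9 CPM (-0.51, adjusted p = 0.00223), and *Birc3*, which encodes the inhibitor of apoptosis cIAP2, 400.0 and 314 CPM (-0.35, adjusted p = 0.0149). The genes that fell thus included 1 inhibitor of death beside 2 of its promoters. In Tim-4-CD4+ against Tim-4-CD4- 0 of 17 were called by edgeR, with 4 at an unadjusted p under 0.05. Against monocytes 9, 11 and 13 of 17 were called, 3, 4 and 5 of them higher, beside 65.4%, 69.8% and 70.9% of all genes.

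In the death receptor pathway 2 of 10 genes were called, in opposite directions, in Tim-4+CD4+ against Tim-4-CD4-, where 23.1% of all genes were, and the list median was 0.03. *Fas*, the receptor for Fas ligand, averaged 3.49 ± 0.164 CPM in Tim-4-CD4- and 1.95 ± 0.383 CPM in Tim-4+CD4+ macrophages (SD, n = 4 each; log2 fold change -0.84, adjusted p = 0.000483 in edgeR), and 19.5 CPM in monocytes. *Mlkl*, the executioner of necroptosis, averaged 22.4 and 28.9 CPM (0.37, adjusted p = 0.037). *Fas* was also lower in Tim-4-CD4+ (-0.51, adjusted p = 0.0357), the only call of 10 there, beside 10.1% of all genes. Against monocytes 6, 5 and 6 of 10 were called in the 3 subsets, 2 of them higher in each, shares below the 65.4%, 69.8% and 70.9% of all genes.

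Of 11 tested transcription factors that regulate the family, 4 were called in Tim-4+CD4+ against Tim-4-CD4-, all lower, with a list median of -0.26, beside 23.1% of all genes called and 11.9% called lower. *Myc* averaged 53.7 ± 1.30 and 34.0 ± 3.52 CPM (SD, n = 4 each; log2 fold change -0.66, adjusted p = 0.000129 in edgeR), and 4.31 CPM in monocytes. The NF-kB subunit genes *Nfkb1*, *Nfkb2* and *Rela* were lower by log2 fold changes of -0.37, -0.40 and -0.34, *Nfkb1* averaging 236 and 182 CPM. Lower in Tim-4-CD4+ against Tim-4-CD4- were 3 of 11, *Myc* (-0.51), *Rela* (-0.32) and *Nfkb1* (-0.29), beside 10.1% of all genes called and 5.53% called lower. Against monocytes 9, 8 and 8 of 11 were called, 6, 4 and 4 of them higher, beside 65.4%, 69.8% and 70.9% of all genes. The NF-kB targets *Bcl2a1b* and *Bcl2a1d* were at log2 fold changes of 0.03 and 0.15 in the first of these comparisons, with intervals of -0.30 to 0.36 and -0.17 to 0.48.

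Of 8 genes that act on Mcl-1 protein turnover 3 were called in Tim-4+CD4+ against Tim-4-CD4-, with a list median of -0.08, beside 23.1% of all genes. *Ube2c*, a ubiquitin-conjugating enzyme of the cell cycle, was lower, at 4.90 ± 1.31 against 11.3 ± 1.83 CPM (SD, n = 4 each; log2 fold change -1.20, adjusted p = 0.0238 in edgeR). *Cdk5* was higher, at 28.7 against 20.5 CPM (0.49, adjusted p = 0.0104; 0.32 without Tim-4+CD4+ replicate 1, the highest library, adjusted p = 0.0150), as was the ubiquitin ligase subunit *Btrc*, at 23.0 against 18.4 CPM (0.32, adjusted p = 0.0449). For Tim-4-CD4+ against Tim-4-CD4- edgeR called 0 of 8, with 1 at an unadjusted p under 0.05, and against monocytes 3, 3 and 2 of 8, all higher and below the 65.4%, 69.8% and 70.9% of all genes. For Tim-4+CD4+ against Tim-4-CD4+ edgeR called 0 genes in each of these 4 lists, with 1, 1, 0 and 1 at an unadjusted p under 0.05.

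Over the 12 macrophage libraries the genes whose log2 CPM was most like that of *Bbc3*, of 11789 genes, were *C1qtnf1* and *Aldh1a2*, each with Pearson r = 0.95, and 21 genes exceeded 0.9. For *Bcl2l11* they were *Parp8* (r = 0.90) and *Cnr2* (r = 0.89), and 1 gene exceeded 0.9. Without the 2 libraries farthest from the median of the member, r was 0.95 and 0.91 for the first pair and 0.79 and 0.89 for the second. These points share the 3 subsets, so the values describe likeness of pattern across and within them.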

How the data were processed

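The values analysed are counts: the deposited table holds whole-number read counts per gene for 19456 genes and 15 libraries, and 15 further columns of the authors' normalised values were not used. Per the labels and the study's methods, the authors used Trimmomatic 0.36 on 65-base paired reads and STAR 2.4.2 for alignment to GRCm38.p4, and HTSeq 0.6.1p1 then counted uniquely mapped reads per GENCODE vM11 gene. The strand setting of the counting is not given in the sources used here. The 10 genes and all further lists were chosen with earlier results of these data known.

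Genes were filtered with filterByExpr by group, which kept 15802, and normalised by TMM. One edgeR 4.0.16 quasi-likelihood fit over all 15 libraries gave 6 comparisons of 4 populations, with p-values adjusted by Benjamini-Hochberg over all tested genes and a threshold of 0.05. SE is the absolute log2 fold change divided by the root of F, and intervals are 95%. Alternatives used DESeq2 1.42.0, other scaling factors and filters, replicate blocks, only the populations compared and leaving out each library, and a 2-fold minimum was added after seeing the data. The edgeR and DESeq2 steps were tested on simulated data.

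Genes named are the 10 members, every other family gene in the table, in each further list at most 4 genes with the largest change of Tim-4+CD4+ against Tim-4-CD4- among those called in a subset comparison, and the 2 genes most correlated with each member so called. Marker genes of other cells, early-response genes and sort markers are named as checks. Exon lengths, positions and shared windows came from a later GENCODE release on GRCm38, and promoters from RefSeq.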

Additional observations from a re-analysis of the deposited data

Results flagged for a closer look

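Of 30 groups of 4 libraries examined for a library far from the rest, 3 macrophage subsets for each of the 10 genes, 2 held one by Dixon's test, and chance gives about 1 in 20. *Mcl1* in Tim-4-CD4+ replicate 3 was 1703 CPM beside 1368 to 1379 CPM in the other libraries of that subset. *Bbc3* in Tim-4+CD4+ replicate 3 was 6.29 CPM beside 3.81 to 4.11 CPM. Both libraries held the highest heat-shock transcripts of their subset, with *Hspa1a* at 542 and 616 CPM, and the part of this in the levels was not tested. Without the latter library *Bbc3* in Tim-4+CD4+ against Tim-4-CD4- had a log2 fold change of -0.96 (adjusted p = 0.00246 in edgeR).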

How the results depend on the processing

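The lowest count of any of the 10 genes was 121. *Bbc3* stayed called in Tim-4+CD4+ against Tim-4-CD4- in 23 of 23 alternative fits, with log2 fold changes of -0.96 to -0.65, and *Bid* in 23 of 23, and neither reached 2-fold in any of them. The number of members called in that comparison was 1 under DESeq2, RLE factors, upper-quartile factors and the filter at a mean of 1 CPM, 0 when 2-fold was also required (chosen after seeing the data), and 1 to 4 when each library was left out. In Tim-4-CD4+ against Tim-4-CD4- 0 members were called under RLE factors, without a filter, with only the 2 populations compared and with 2-fold also required. Without each library 0 to 1 members were called. Of all genes 1582 were called there under RLE factors, 1412 without a filter and 1033 to 2203 without each library. With 2-fold also required, 5, 5 and 5 members were called against monocytes, and 8 to 8, 8 to 9 and 7 to 8 without each library, and 0 to 0 in Tim-4+CD4+ against Tim-4-CD4+. Over all genes the calls in Tim-4-CD4+ against Tim-4-CD4- rose from 1589 to 2234 with only the 2 populations fitted and in Tim-4+CD4+ against Tim-4-CD4+ from 539 to 917 under DESeq2, and the median change of all genes against monocytes moved from 0.08, 0.11 and 0.10 to 0.16, 0.23 and 0.24 under DESeq2. The causes were not tested.

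The *Bcl2l11* call in Tim-4+CD4+ against Tim-4-CD4- was lost in 13 of 23 alternatives, among them leaving out Tim-4-CD4- replicate 1 (adjusted p = 0.113 in edgeR) or 2 (0.129), Tim-4-CD4+ replicate 2 (0.0541) or 3 (0.0507), and Tim-4+CD4+ replicate 1 (0.0662), 2 (0.0641), 3 (0.0535) or 4 (0.0919). The *Bbc3* call in Tim-4-CD4+ was lost without any monocyte library (adjusted p 0.0628, 0.0634 and 0.0670 in edgeR for replicates 1 to 3), without Tim-4-CD4- replicate 1 (0.0570), 2 (0.112) or 3 (0.163), and likewise for Tim-4-CD4+ replicate 1 (0.102), 2 (0.137) or 4 (0.163) and for Tim-4+CD4+ replicate 2 (0.0604) or 4 (0.0559). *Mcl1* in Tim-4+CD4+ against Tim-4-CD4- was called without monocyte replicate 2 (0.0498), Tim-4-CD4+ replicate 3 (0.0376) or Tim-4+CD4+ replicate 3 (0.0340), and *Pmaip1* without monocyte replicate 1 (0.0243) or 2 (0.0214). Against monocytes, the *Mcl1* call in Tim-4-CD4+ was lost without monocyte replicate 2 (0.105) or Tim-4-CD4+ replicate 3 (0.0893), and *Mcl1* in Tim-4+CD4+ was called without Tim-4+CD4+ replicate 1 (0.0408) and under upper-quartile factors (0.0193). The *Bax* call in Tim-4-CD4+ was lost without monocyte replicate 1 (0.352) or Tim-4-CD4+ replicate 1 (0.0504), 2 (0.0503) or 4 (0.0716). The *Bcl2l11* call in Tim-4+CD4+ was lost without each of 14 libraries (adjusted p up to 0.270 in edgeR). Of other genes called in Tim-4+CD4+ against Tim-4-CD4-, *Birc3*, *Nfkb2*, *Mlkl*, *Ube2c* and *Btrc* lost their call without 1, 4, 5, 5 and 8 of the 15 libraries (adjusted p up to 0.0656, 0.122, 0.103, 0.0736 and 0.0902 in edgeR). In Tim-4-CD4+ against Tim-4-CD4- *Bcl2l15*, *Nfkb1*, *Rela* and *Fas* did so without 4, 6, 8 and 10 (up to 0.0764, 0.122, 0.122 and 0.108), and *Bad* in Tim-4-CD4- against monocytes without 1 (0.0900).

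Small uncalled changes turned sign. *Bax* in Tim-4+CD4+ against Tim-4-CD4- became 0.019 under DESeq2 and RLE factors, 0.049 under upper-quartile factors, 0.0017 without a filter, 0.026 with the 1 CPM filter and 0.0098 with only the 2 populations, and ran from -0.073 to 0.050 without each library. *Bcl2l11* in Tim-4-CD4+ against monocytes became 0.013 under DESeq2, 0.012 under RLE factors, 0.011 with the 1 CPM filter and 0.048 under upper-quartile factors, and ran from -0.13 to 0.074 without each library. Ranges without each library in Tim-4+CD4+ against Tim-4-CD4- were -0.14 to 0.067 for *Bcl2l1*, -0.13 to 0.14 for *Bcl2a1b*, -0.026 to 0.27 for *Bcl2a1d* and -0.12 to 0.16 for the summed copies. They were -0.067 to 0.020 for *Bcl2* and -0.071 to 0.045 for *Bcl2a1b* in Tim-4-CD4+ against Tim-4-CD4-. In Tim-4+CD4+ against Tim-4-CD4+ they were -0.14 to 0.0069 for *Bcl2*, -0.11 to 0.17 for *Bcl2a1b*, -0.028 to 0.089 for *Bak1*, -0.29 to 0.13 for *Bbc3* and -0.048 to 0.23 for the summed copies. Against monocytes they were -0.26 to 0.050 for *Bax* in Tim-4-CD4-, -0.26 to 0.053 for *Bax* in Tim-4+CD4+ and -0.057 to 0.15 for *Bcl2l11* in Tim-4-CD4-.

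Whether the replicate numbers pair the libraries by sort was not settled. Correlations of deviations between same-numbered macrophage libraries were -0.12 to 0.13 by the titles, with 2 of 12 pairs over 0.1 and 0 of 12 libraries closest to their own number, and -0.089 to 0.16 by the descriptions, with 4 of 12 and 4 of 12. A replicate block by titles called 2, 1 and 0 members in the subset comparisons, in the order of the report, and 8, 8 and 7 against monocytes. A block by descriptions called 3, 0 and 0, and 8, 8 and 7. Under the blocks *Bax* in Tim-4+CD4+ against Tim-4-CD4- was 0.011 by titles and 0.0036 by descriptions, and *Bcl2l11* in Tim-4-CD4+ against monocytes 0.0037 by descriptions.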
